A study of Mus musculus with 4 samples.

Results

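Fos, Fosb, Jun, Junb, Egr1, Ier2, Atf3, Dusp1, Klf2 and Klf6 are immediate-early response genes, and their transcripts were followed in CD45+ cells, leukocytes and microglia, that had been sorted from 2 brain regions, thalamus and hippocampus (HPC), after cortical brain injury in mice. The 10 genes were chosen by name, and each was found as 1 of 32285 gene rows in all 8 count matrices. The mice were C57B6/J and all of them were injured, so thalamus and HPC of the injured hemisphere are compared with each other and with no uninjured control. For each region, equal numbers of cells of 4 mice were tagged with multiplexing oligos, pooled, sorted for live CD45+ cells and run as 1 droplet library (10x 3' chemistry), and each of the 4 tagged sets per region was taken as 1 mouse, which the labels do not state. Region, sort and library can therefore not be told apart in any single cell class. Tissue was homogenised in a Dounce in chilled buffer, and the question addressed here is whether a thalamus against HPC difference of these genes was shared by microglia and T cells, which went through the same homogenate, sort and library.

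Immediate-early genes are transcribed within minutes of a stimulus without new protein synthesis, through factors such as CREB and SRF that already sit at their promoters, and their messages decay quickly. Fos and Fosb proteins pair with Jun and Junb into AP-1, a transcription factor of growth, stress and inflammatory responses. The same genes respond to the dissociation of tissue, so in isolated brain cells they are read both as a record of activity and as a sign of handling. Microglia are the resident macrophages of the brain.

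After filtering, 24939 of 29190 cells with 119958441 unique molecules (UMIs) remained, 11537 from the thalamus and 13402 from the HPC. Cells were assigned by marker genes to microglia (8716 thalamus, 10980 HPC), T cells (1540 and 1044), neutrophils (275 and 459) and smaller classes, and 7.05% were left unassigned. T cells numbered 107 to 632 per thalamus set, but 706, 197, 26 and 115 in HPC sets 1 to 4. Microglial markers summed to 141 to 196 UMIs per 10000 in the cells called microglia and to 4.21 to 5.26 in those called T cells, while T cell markers summed to 67.5 to 76.0 in T cells. HPC set 1 stood apart, with 80.5% of its cells kept against 92.9% to 95.6% in the other HPC sets. Barcodes were not shared between sets of a region, and 65 occurred in both regions.

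Stretches of 300 bases around the start site (250 upstream, 50 downstream, RefSeq, GRCm38.p6) were read for 8 of the 10 genes, since genes that move together are often read for the sites they share. The short form of the cAMP response element, TGACG, on either strand, was found in 6 of the 8, namely Fos, Fosb, Junb, Atf3, Dusp1 and Klf2, and in 21.0% of 27025 promoters of the same length. The full element TGACGTCA, which contains the short form on both strands, was found in Dusp1 alone of the 8, and in 1.88% of all promoters. The AP-1 site TGANTCA and the CArG box, the SRF site, occurred in 0 of the 8 windows and in 7.93% and 1.57% of all promoters. Sites farther upstream than 250 bases, or with other letters, would not be found this way. Egr1 and Ier2 were the genes not read. Matches are letters in a window and not shown to be bound. The promoters below are of the genes on which the comparison of microglia and T cells turned and of Dusp1, and capitals mark the full and short sites, which lay 129 and 66 bases upstream of the start in Fos, 106 in Junb, 191 and 143 in Dusp1, and 241 in Klf2.
Fos, chr12:85473640-85473939, plus strand: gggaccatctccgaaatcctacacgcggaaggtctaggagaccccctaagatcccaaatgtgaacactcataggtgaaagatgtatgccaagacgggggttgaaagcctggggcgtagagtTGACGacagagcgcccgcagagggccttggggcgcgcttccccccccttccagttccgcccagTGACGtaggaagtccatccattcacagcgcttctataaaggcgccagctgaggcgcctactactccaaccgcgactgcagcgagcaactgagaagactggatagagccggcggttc
Junb, chr8:84978699-84978998, minus strand: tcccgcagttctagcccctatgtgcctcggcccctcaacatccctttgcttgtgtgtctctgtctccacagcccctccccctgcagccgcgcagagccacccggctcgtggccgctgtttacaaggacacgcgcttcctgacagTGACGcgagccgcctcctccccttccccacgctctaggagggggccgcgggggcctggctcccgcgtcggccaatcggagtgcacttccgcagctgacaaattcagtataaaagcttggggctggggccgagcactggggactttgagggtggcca
Dusp1, chr17:26508423-26508722, minus strand: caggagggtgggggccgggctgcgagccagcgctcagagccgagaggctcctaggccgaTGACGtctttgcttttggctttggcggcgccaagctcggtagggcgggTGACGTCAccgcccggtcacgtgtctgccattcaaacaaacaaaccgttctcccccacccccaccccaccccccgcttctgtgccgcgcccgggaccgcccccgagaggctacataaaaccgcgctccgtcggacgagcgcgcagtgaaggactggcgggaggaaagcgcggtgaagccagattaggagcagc
Klf2, chr8:72318812-72319111, plus strand: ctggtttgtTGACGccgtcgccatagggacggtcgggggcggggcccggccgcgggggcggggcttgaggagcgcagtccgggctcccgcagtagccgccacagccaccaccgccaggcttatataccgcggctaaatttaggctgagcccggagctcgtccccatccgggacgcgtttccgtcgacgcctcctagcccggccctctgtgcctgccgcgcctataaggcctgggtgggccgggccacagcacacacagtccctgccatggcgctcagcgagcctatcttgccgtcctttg

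In microglia, 7 of the 10 genes were higher in the thalamus and none was lower. Levels are given as UMIs of the gene per 10000 UMIs of all genes in the summed cells of a set, in the order of sets 1 to 4. Tests were edgeR quasi-likelihood tests on the summed counts of 4 against 4 sets, with p-values adjusted (Benjamini-Hochberg) across every tested gene, and a gene was called at an adjusted p (FDR) under 0.05. Of 13180 genes tested in microglia, 1172 (8.89%) were called higher and 602 (4.57%) lower, and 879 and 1022 when counts were scaled by library totals alone, a setting under which the number of the 10 called stayed at 7. Leaving out each set in turn, HPC set 1 included, also gave 7. A gate that allowed no marker of any other class kept 138 to 267 microglia a set, and with it 2 of the 10 were called, Atf3 and Klf2. The median log2 fold change (log2FC, thalamus over HPC) was 0.71 over the 10 genes and -0.01 over all genes tested.

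**Figure D1:**
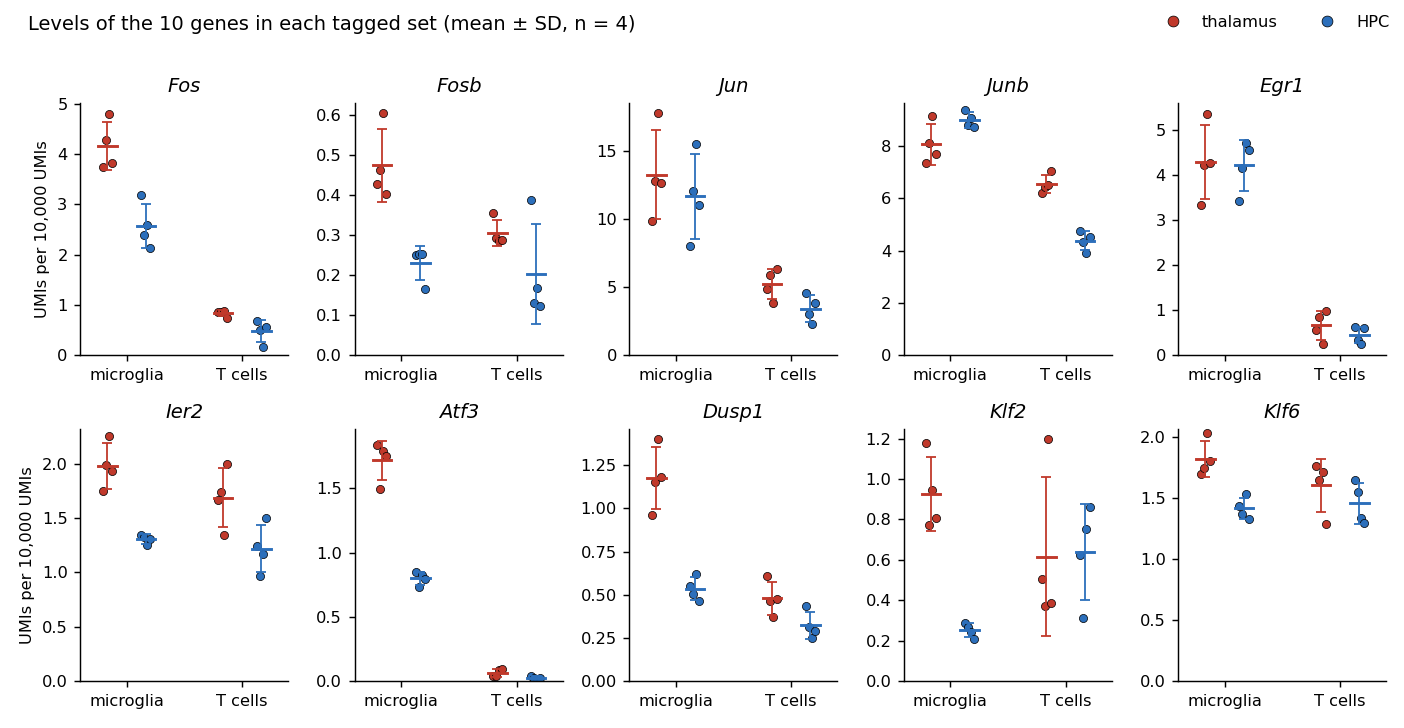
UMIs per 10000 UMIs of each gene (vertical axes, a different range in each panel) in microglia and T cells of each tagged set, thalamus in red and HPC in blue. Points are sets, bars the mean and SD of 4 sets; the red and blue points of microglia are apart for Fos, Fosb, Ier2, Atf3, Dusp1, Klf2 and Klf6, and those of T cells for Fos and Junb.

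Klf2, a zinc-finger factor known for quiescence and trafficking of lymphocytes and for the response of endothelium to flow (chr8:72319033-72321656), had the largest difference of the 10. Its microglial level was 1.18, 0.77, 0.94 and 0.81 in the thalamus sets and 0.29, 0.27, 0.24 and 0.21 in the HPC sets. Every thalamus set was above every HPC set, and the log2FC was 1.94 (SE 0.16, FDR 0.00048). T cells, in which the factor is best known, behaved otherwise. Their Klf2 level was 0.50, 0.37, 1.20 and 0.39 in the thalamus sets and 0.63, 0.31, 0.75 and 0.86 in the HPC sets. These groups overlapped, with a log2FC of -0.25 (95% interval -0.95 to 0.45, FDR 1.00). The difference between the region effects of microglia and T cells was itself called, at 2.09 (SE 0.35, FDR 0.0063). Markers of some other cell types differed in microglia too, in both directions. The 9 markers of non-immune brain cells, which include the endothelial genes Cldn5 and Flt1, summed to 0.151 to 0.271 in thalamus and 0.121 to 0.143 in HPC microglia, with 1 or 2 of the 9 at 0. The 9 T cell markers, with 0 at 0, summed to 0.634 to 0.971 and 0.327 to 0.460. The 6 B cell markers were lower in the thalamus, at 1.15 to 1.48 and 1.69 to 2.75, as were the neutrophil markers (4.31 to 4.40 and 4.82 to 5.07). Markers of macrophages or monocytes, dendritic cells and natural killer cells overlapped between regions. The part of such RNA in the Klf2 difference was not tested.

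Atf3, a stress-induced repressor of the ATF/CREB family (chr1:191170296-191218039), was read in microglia and neutrophils and hardly in T cells. Its microglial level was 1.84, 1.49, 1.79 and 1.75 in the thalamus against 0.85, 0.73, 0.82 and 0.79 in the HPC. The sets did not overlap, and the log2FC was 1.17 (SE 0.09, FDR 0.00048). In T cells Atf3 reached 0 to 0.0897 UMIs per 10000, a median of 0.0308 of the microglial level of the same set, and was too low to be tested. C1qa, C1qb, C1qc, Ctss and Trem2, microglial genes kept out of the assignment, stood in T cells at 1.88% to 8.79% of their microglial level, and the T cell level of Atf3, at most 0.0512 of the microglial one, lay within or under that range of free RNA.

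Dusp1 encodes a phosphatase that switches off MAP kinases (chr17:26505590-26562128). Its microglial level was 0.96, 1.15, 1.40 and 1.18 in the thalamus against 0.55, 0.50, 0.62 and 0.46 in the HPC, which did not overlap (log2FC 1.20, SE 0.11, FDR 0.00071). In T cells it was 0.61, 0.46, 0.37 and 0.48 in the thalamus against 0.44, 0.31, 0.25 and 0.29 in the HPC, a log2FC of 0.42 (95% interval 0.02 to 0.83) that was not called (FDR 0.72). The microglial effect exceeded that of T cells by 0.71 (95% interval 0.25 to 1.17), also not called after adjustment (FDR 0.16). Leaving out thalamus set 1 raised this difference to 0.92 (FDR 0.033).

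Fos (chr12:85473890-85477273), the gene most often used as an activity marker, had a small gap between the region effects of the 2 classes in the fit of both. Its microglial level was 3.75, 4.28, 4.79 and 3.82 in the thalamus against 3.18, 2.40, 2.58 and 2.14 in the HPC, with no overlap (log2FC 0.75, SE 0.13, FDR 0.0086). In T cells it was 0.86, 0.87, 0.89 and 0.74 in the thalamus against 0.68, 0.50, 0.17 and 0.55 in the HPC. Again every thalamus set was above every HPC set, and the log2FC was 0.51 (95% interval 0.15 to 0.88) with an FDR of 0.40. The microglial effect minus the T cell effect was 0.09 (95% interval -0.31 to 0.48). T cell Fos was at a median of 0.205 of the microglial level, lowest in HPC set 3, which had 26 T cells, and the part of free microglial RNA in it was not tested.

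Ier2, which encodes a nuclear protein of less settled role (chr8:84661331-84662852), also had a small gap in that fit. Its microglial level was 1.75, 1.99, 2.26 and 1.94 in the thalamus against 1.35, 1.32, 1.25 and 1.31 in the HPC (log2FC 0.67, SE 0.07, FDR 0.0012), without overlap. In T cells, where it stood at a median of 0.930 of the microglial level, it was 1.66, 1.74, 1.34 and 2.00 in the thalamus against 1.24, 0.97, 1.17 and 1.498 in the HPC. Only HPC set 4 reached into the range of the thalamus sets, and the log2FC of 0.50 (95% interval 0.20 to 0.79) had an FDR of 0.27. Among 19 alternatives for T cells Ier2 was called in 2, and its log2FC was positive in all 19, from 0.38 to 0.60. The effects differed by 0.12 (95% interval -0.25 to 0.48).

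Fosb (chr7:19302696-19310051) was sparse, at 0.43, 0.46, 0.60 and 0.40 in thalamus microglia and 0.25, 0.25, 0.25 and 0.17 in HPC microglia (log2FC 1.10, SE 0.16, FDR 0.0040). The groups did not overlap. In T cells the thalamus sets lay between 0.286 and 0.354 and the HPC sets between 0.123 and 0.388, and the log2FC was 0.20 (95% interval -0.42 to 0.82). Klf6, a zinc-finger factor that is widely expressed (chr13:5861482-5870394), had the smallest of the called differences. It was at 1.69, 1.74, 2.03 and 1.80 in thalamus microglia and 1.43, 1.36, 1.53 and 1.33 in HPC microglia (log2FC 0.43, SE 0.07, FDR 0.0055). T cells held Klf6 at 1.29 to 1.76 in the thalamus against 1.29 to 1.64 in the HPC, and their log2FC was 0.05 (95% interval -0.22 to 0.33). The effects in microglia exceeded those in T cells by 0.71 for Fosb (95% interval 0.11 to 1.31) and 0.35 for Klf6 (95% interval 0.04 to 0.66), neither called after adjustment (FDR 0.34 and 0.39). The Fosb values for T cells moved with HPC set 1, the highest of its region. Without it the T cell log2FC was 1.19 (FDR 0.19) and the difference between the classes turned to -0.11 (FDR 0.95), and without HPC set 2 the T cell log2FC was 0.0038.

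Junb was called in T cells and not in microglia. It encodes an AP-1 partner of Fos (chr8:84974484-84978718), and its microglial level was 7.34, 8.12, 9.14 and 7.68 in the thalamus against 9.38, 8.79, 9.06 and 8.73 in the HPC. These overlapped in thalamus set 3, and the log2FC was -0.09 (95% interval -0.26 to 0.08, FDR 0.45). In T cells Junb was 6.20, 6.44, 6.51 and 7.03 in the thalamus against 4.74, 4.33, 3.92 and 4.54 in the HPC, with each thalamus set above each HPC set. It was the only one of the 9 genes testable in T cells to be called (log2FC 0.54, SE 0.08, FDR 0.0094), where 18 of 8850 genes (0.203%) were called in all, 16 higher (0.181%). Without HPC set 2 the FDR was 0.097 at a log2FC of 0.53, and in T cells with a Cd4 but no Cd8 UMI, an alternative chosen after seeing the data, 0.13 at 0.45. Such cells made up 16.1% to 35.0% of the thalamus and 27.0% to 42.1% of the HPC T cells. These shares overlapped between regions, and their part in the result was not tested otherwise. With a gate of 4 markers and 3 times any other class, added likewise, the FDR of Junb was 0.073 at a log2FC of 0.48. DESeq2 called 28 genes in T cells, 5 higher and 23 lower. The region effect of Junb in microglia minus that in T cells was -0.66 (SE 0.14, FDR 0.026). This call was lost, at FDR 0.054 to 0.10, on leaving out thalamus set 1, 2 or 4 or HPC set 2, 3 or 4, with values from -0.61 to -0.71 over all sets left out in turn. It was lost as well after thinning (FDR 0.066) and with the gate of 4 markers, again without HPC set 3 (FDR 0.069), and was made in 12 of 21 alternatives.

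Jun and Egr1 did not pass the main test in either class. Jun, the other AP-1 partner (chr4:95049034-95052222), was at 9.88, 12.79, 17.77 and 12.65 in thalamus microglia and 8.01, 12.08, 15.54 and 11.07 in HPC microglia. The regions overlapped (log2FC 0.26, 95% interval -0.18 to 0.70, FDR 0.40). Each thalamus set lay above the HPC set of its own number. With set number as a replicate block, an alternative given below, Jun was called in microglia. In T cells it was 4.85, 5.87, 3.86 and 6.37 in the thalamus against 4.55, 3.05, 2.25 and 3.82 in the HPC, a log2FC of 0.53 (95% interval 0.19 to 0.88, FDR 0.34), and DESeq2 called it at an adjusted p of 0.038. Egr1, a zinc-finger factor downstream of ERK signalling and encoded on chromosome 18, was at 3.32, 4.21, 5.34 and 4.27 in thalamus microglia and 3.43, 4.16, 4.71 and 4.55 in HPC microglia, which overlapped almost wholly (log2FC 0.09, 95% interval -0.19 to 0.37). In T cells it lay at 0.257 to 0.974 in the thalamus against 0.250 to 0.616 in the HPC (log2FC 0.49, 95% interval -0.09 to 1.06).

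Read over the list, 9 of the 10 genes had a positive log2FC in microglia and 8 of 9 in T cells, where the median was 0.49 over these genes and 0.00 over all genes tested. In T cells 5 of the 9 (Fos, Jun, Junb, Ier2 and Dusp1) were higher at an unadjusted p under 0.05, which 3.13% of all genes were. All 4 thalamus sets lay above all 4 HPC sets for 7 of the 10 genes in microglia (11.7% of all genes tested) and for 2 of 9 in T cells (2.43%). In the test of the difference between classes, 106 of 8588 genes (1.23%) were called, and among the 10 these were Klf2, larger in microglia (1.15% of genes), and Junb, smaller in microglia (0.0815%). Drawing as many microglia as there were T cells in each set left 5 calls of the 7 in microglia, with Ier2 (FDR 0.15) and Klf6 (FDR 0.053) lost.

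**Figure D2:**
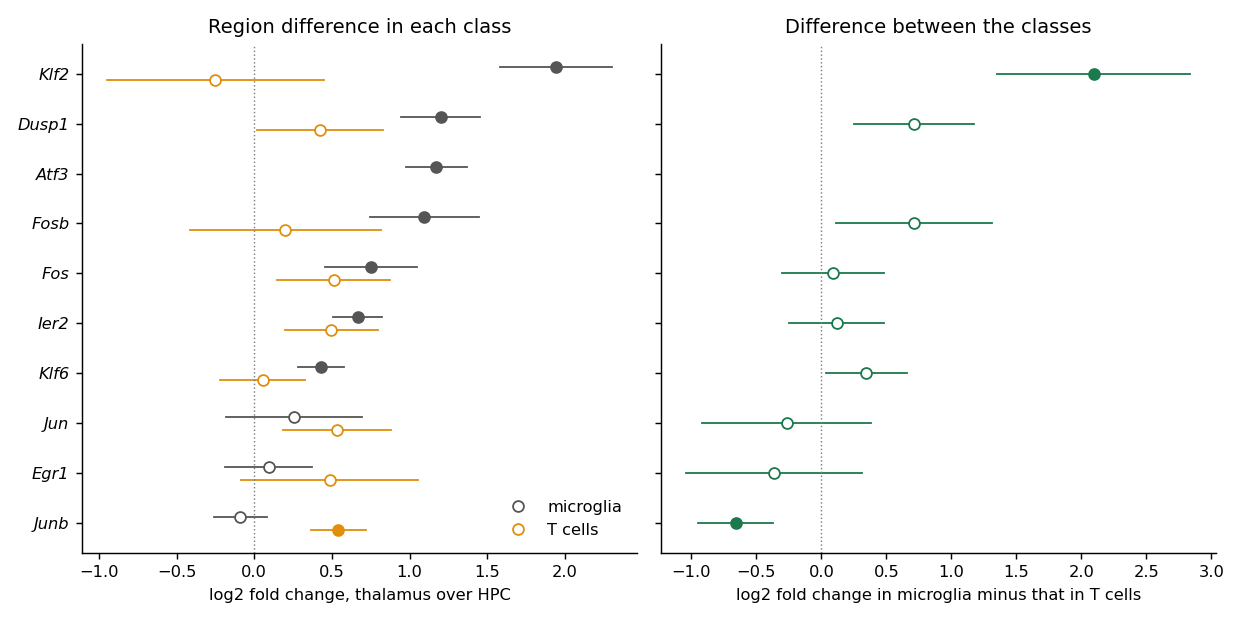
Left, log2 fold change of thalamus over HPC (horizontal axis) of each gene in microglia (grey) and T cells (orange); right, the microglial value minus the T cell value from the fit of both classes. Lines are 95% intervals and filled points an FDR under 0.05; only Klf2, at 2.09, and Junb, at -0.66, are filled on the right, and Atf3 was not tested in T cells.

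The state of the microglia differed between regions as well. Cells with 3 or more of 7 disease-associated microglia (DAM) markers, genes that rise in microglia around damage, made up 24.1% to 50.3% of thalamus and 1.36% to 8.70% of HPC microglia. Among microglia with none of these markers, 34 of 11388 genes were called between regions, 26 higher in the thalamus (0.228%), and 7 of those 26 were of the 10, the same 7 as in all microglia. Fos was at 5.25 ± 0.75 (SD, n = 4) in these thalamus cells and 2.58 ± 0.47 in the HPC (log2FC 1.03, FDR 0.0059), Ier2 at 2.51 ± 0.24 and 1.34 ± 0.10 (log2FC 0.91, FDR 0.00033), Atf3 at 1.42 ± 0.12 and 0.707 ± 0.038 (log2FC 1.01, FDR 2.6e-05), and Klf2 at 0.897 ± 0.140 and 0.204 ± 0.008 (log2FC 2.13, FDR 1.0e-06). The 7 differences were thus present in cells with no UMI of these markers, 195 to 454 a set in the thalamus and 1361 to 2205 in the HPC. The part of markers present but not detected was not tested. Egr1 was at 6.02 ± 0.75 and 4.43 ± 0.43 here, a log2FC of 0.45 that just missed the threshold (FDR 0.075).

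Marker-rich microglia were tested too, in an alternative chosen after seeing the data. Of 10627 genes 187 were called, 129 of them higher (1.21%), and of the 10 these were Klf2 (log2FC 1.40, FDR 0.00020), Dusp1 (1.28, FDR 6e-05), Fosb (0.73, FDR 0.047) and Jun (0.69, FDR 0.0022). Jun thus passed the test here at 8.73 ± 1.15 in the thalamus against 5.69 ± 0.87 in the HPC, though not in microglia as a whole, while Fos (0.37, FDR 0.17), Ier2 (0.49, FDR 0.055), Atf3 (0.40, FDR 0.14) and Klf6 (0.27, FDR 0.21) did not. In marker-free cells Jun was at 18.2 ± 3.6 in the thalamus and 12.6 ± 2.9 in the HPC, and was not called. Of the genes that did not pass in marker-rich cells, Ier2 was at 1.38 ± 0.11 and 1.03 ± 0.26. Klf6 was at 1.79 ± 0.19 and 1.49 ± 0.08. HPC sets 1 to 4 contributed 317, 95, 27 and 87 cells to the marker-rich group. Within each of the 8 sets, marker-rich cells had less Jun, Junb and Egr1 than cells without markers (8 of 8 sets for each gene) and more Atf3 (8 of 8). Fos and Ier2 were lower in 7 of 8 sets, Dusp1 in 6 and Klf6 in 5, while Fosb and Klf2 were higher in 7. The share of all genes with such an order was not computed. Junb, for instance, was at 10.0 ± 0.5 without and 5.66 ± 0.46 with the markers in the thalamus, and at 9.51 ± 0.57 and 5.73 ± 0.64 in the HPC. Marker-rich cells were also deeper, with set medians of 5850.5 to 6967 UMIs against 4128 to 4662 (cells of 2000 UMIs or more), and the part of depth in these gaps was not tested. No test of marker-rich against marker-free cells was made. In neither group did the region difference of Junb pass the test (log2FC 0.08 and -0.0049, FDR 0.80 and 1.00). With marker-free microglia the Junb difference against T cells was -0.49 and no longer called (FDR 0.39), whereas that of Klf2 was 2.27 (FDR 0.0011).

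**Figure D3:**
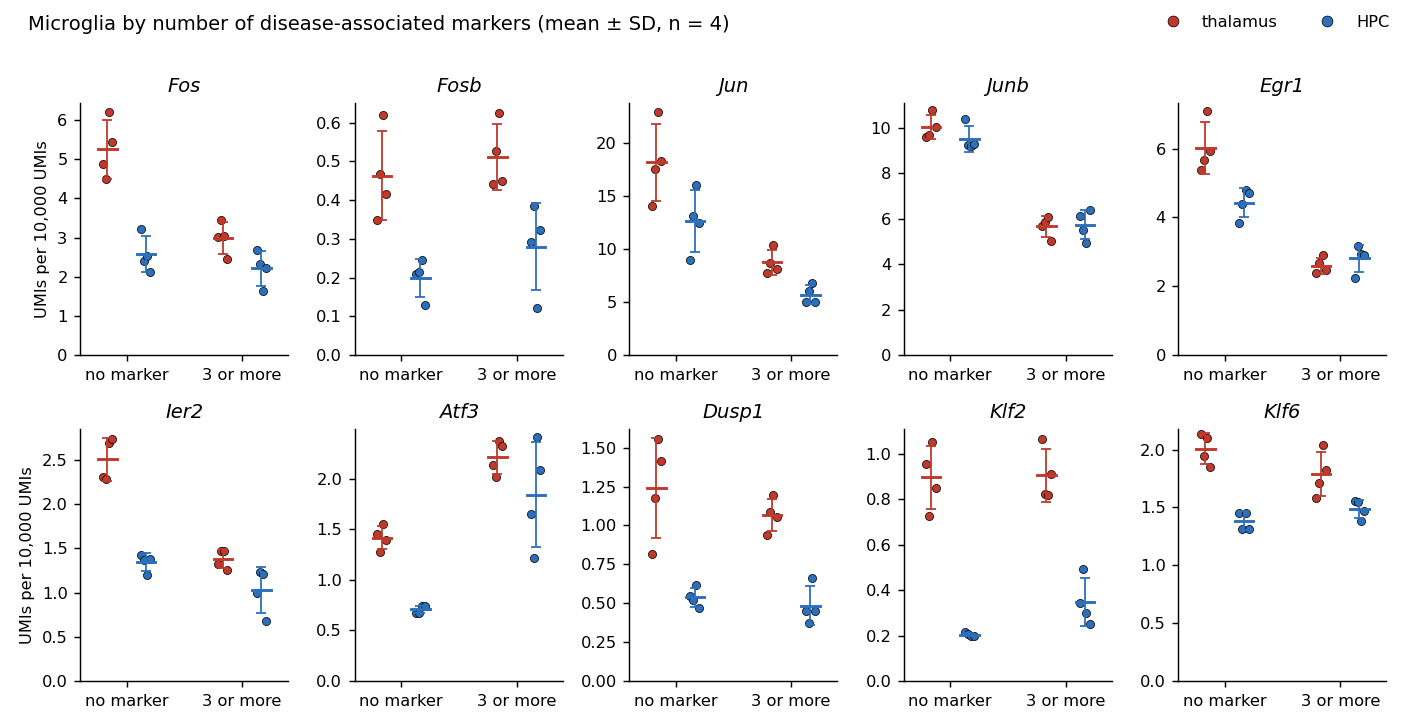
UMIs per 10000 UMIs of each gene (vertical axes, a different range in each panel) in microglia with no DAM marker and with 3 or more, by region; points are tagged sets, bars the mean and SD of 4 sets. Jun, Junb and Egr1 are lower and Atf3 higher in marker-rich cells of both regions, and Klf2 is higher in the thalamus in both groups of cells.

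Per cell, the genes were counted after each cell had been thinned to 2000 UMIs, which left out 558 thalamus and 366 HPC microglia and 66 and 23 T cells that were shallower. Microglia with UMIs of 5 or more of the 10 genes made up 23.0% to 32.2% of the thalamus sets and 13.3% to 15.2% of the HPC sets. Microglia with none of the 10 were also more frequent in the thalamus, at 5.34% to 9.96% against 2.75% to 5.08%. The regions overlapped in this share without cells of under 40 Malat1 UMIs per 10000 (2.76% to 4.703% and 2.70% to 4.31%) and among cells without DAM markers (1.23% to 4.17% and 2.73% to 4.38%). Microglia without DAM markers held 31.2% to 37.3% with 5 or more genes in the thalamus against 13.5% to 15.3% in the HPC, and marker-rich cells held 11.0% to 14.8% and 10.3% to 14.0% with none. Of T cells, 3.68% to 4.08% and 0% to 3.62% had 5 or more of the genes.

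**Figure D4:**
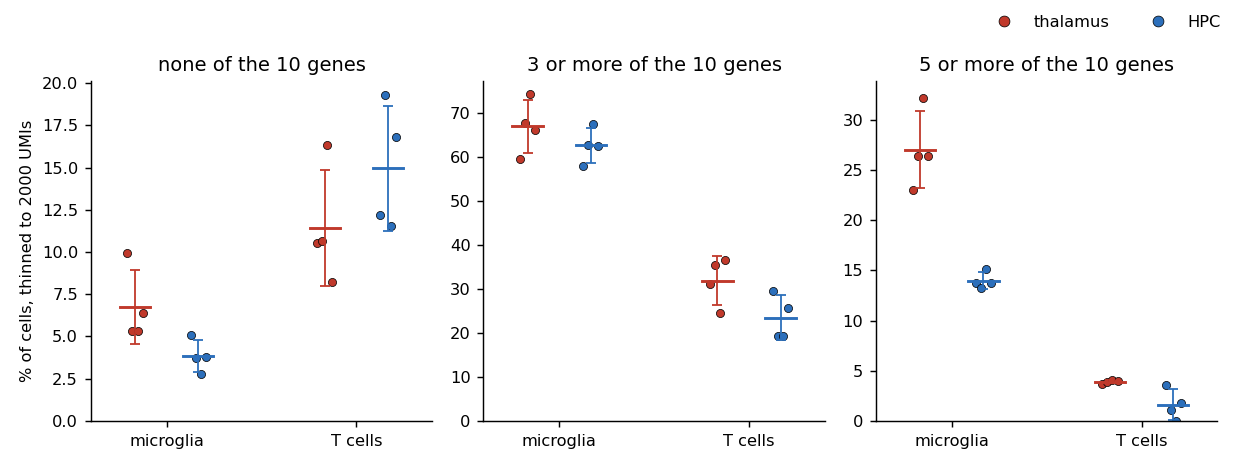
Share of cells (%, after thinning to 2000 UMIs) with a UMI of none, of 3 or more and of 5 or more of the 10 genes, in microglia and T cells of each tagged set. Points are sets, bars the mean and SD of 4; microglia with 5 or more genes lie at 23.0% to 32.2% in the thalamus against 13.3% to 15.2% in the HPC.

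In shares of thinned cells, Klf2 was found in 10.0% to 14.7% of thalamus and 2.90% to 4.19% of HPC microglia (18.9% to 25.02% and 6.50% to 9.23% before thinning). Atf3 was found in 19.97% to 23.8% and 11.0% to 12.6% of microglia (33.5% to 39.8% and 22.3% to 24.2% before thinning), and in 0% to 2.30% of the T cells, which served as its background at the same depth. Junb was found in fewer thalamus cells, at 62.1% to 71.6% of thalamus microglia and 73.5% to 76.1% of HPC microglia (77.9% to 84.9% and 88.7% to 90.0% before thinning), while the shares with Jun and with Egr1 overlapped between regions (64.4% to 82.2% and 60.9% to 84.8% for Jun, 37.3% to 50.6% and 41.5% to 51.5% for Egr1). Microglia with under 40 Malat1 UMIs per 10000, a sign of cells that have lost nuclear RNA, made up 5.70% to 16.7% of the thalamus and 0.252% to 2.55% of the HPC sets. Leaving them out kept 7 calls, with Fos at 0.78, Atf3 at 1.18 and Klf2 at 1.97.

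Neutrophils, which pass through the same sort, had higher mean levels of Fos, Junb, Dusp1 and Klf2 than microglia in both regions. Their means of Jun (7.26 in the thalamus, 6.01 in the HPC) and Egr1 (1.89 and 1.84) lay under those of microglia (13.3 and 11.7, 4.29 and 4.21). Thalamus sets 1, 2 and 4 held 121, 105 and 37 neutrophils, and HPC sets 1, 2 and 4 held 405, 27 and 21. In the 3 sets per region with 20 or more of them, Junb was at 13.7 ± 2.8 (SD, n = 3) in the thalamus against 11.8 ± 3.7 in the HPC, Fos at 4.98 ± 0.45 and 4.98 ± 1.24, Dusp1 at 4.94 ± 0.61 and 3.67 ± 0.51, and Klf2 at 3.91 ± 0.79 and 3.17 ± 0.72. The sets of the regions overlapped for all 4 genes, for Dusp1 only at the edge (4.24 to 5.36 and 3.26 to 4.25). Neutrophils had the highest mean level of Klf2, Dusp1 and Junb of the 3 classes, though their lowest HPC set for Junb, at 7.68, lay under the microglia, followed by microglia and T cells for Dusp1 and Junb, while for Klf2 the order of microglia and T cells depended on the region, with T cells the higher in 5 of 8 sets. Natural killer cells were few, 28 and 45, and were read as sums with exact Poisson intervals for counting error only. Their Klf2 level was 2.38 (1.54 to 3.51) and 2.94 (2.22 to 3.82), with no test across sets. The 9 neutrophil markers summed to 4.31 to 4.40 UMIs per 10000 in thalamus and 4.82 to 5.07 in HPC microglia, against 408 to 1734 in neutrophils.

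Other genes of the same programmes gave the setting. Of 30 further immediate-early genes, 25 were tested in microglia and 6 were higher in the thalamus, 0 lower (background 8.89%). Egr3, an inducible relative of Egr1, had the largest change, at a log2FC of 1.78 (SE 0.19, FDR 0.0011), and the others were Nr4a2 (1.41), Egr2 (1.02), Klf4 (0.92), Sgk1 (0.60) and Myc (0.50). Of 15 NF-kB targets and cytokines tested, 5 were higher, among them the chemokine Ccl3 (log2FC 2.06, SE 0.29, FDR 0.0040), with Ccl4 (1.98), Ccl2 (1.54), Cd83 (1.11) and Rgs1 (0.57). Of 11 heat-shock genes, which also respond to handling, 3 were higher, namely Hsp90ab1 (0.38, FDR 0.028), Hspa8 (0.34) and Hspd1 (0.26), and the inducible Hspa1a did not pass (1.30, SE 0.93). Of 20 upstream kinases and factors such as Srf, Creb1 and the MAP kinases, 0 were called higher (1 at an unadjusted p under 0.05, Srf at 0.49, and 0 by DESeq2) and 1 was lower, Rps6ka1, a kinase downstream of ERK (log2FC -0.25, SE 0.06, FDR 0.035). Of 7 T cell trafficking genes tested in microglia 1 was higher, Itgb7 (0.85, FDR 0.018), an integrin chain. Its difference against T cells was called as well (0.86, FDR 0.038). As given above with Klf2, the 9 T cell markers summed to 0.634 to 0.971 in thalamus and 0.327 to 0.460 in HPC microglia. B cell and neutrophil markers were lower in the thalamus. The part of RNA from other cells in the Itgb7 difference was not tested. In T cells edgeR called 0 of the 69 tested genes of these 5 lists, and DESeq2 0, with no adjusted p for 58. At an unadjusted p under 0.05, 8 of the 69 were higher and 0 lower. These were Egr3 (1.13), Nr4a3 (1.04), Nr4a2 (0.92), Dusp2 (0.46), Nfkbid (0.50), Nfkbia (0.37), Tnfaip3 (0.36) and Dnajb1 (0.35), where 3.13% of all genes were higher at that threshold.

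**Figure D5:**
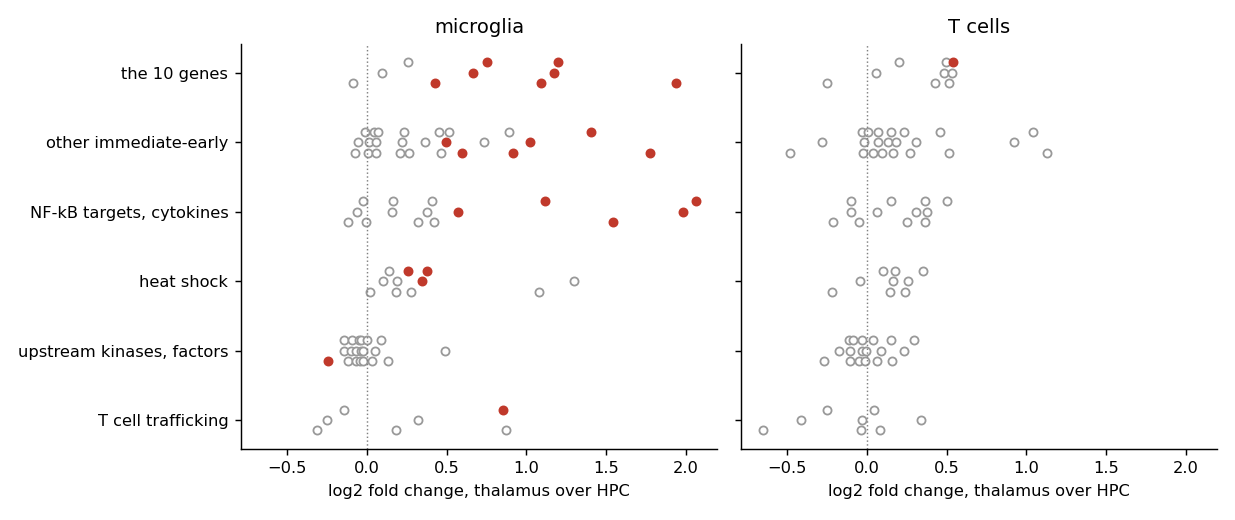
Log2 fold change of thalamus over HPC (horizontal axis) of each tested gene of 6 lists in microglia (left) and T cells (right). Filled red points have an FDR under 0.05; in microglia they lie to the right in every list but the upstream kinases and factors, and in T cells the only one is Junb.

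The genes whose pattern over the 16 sums of microglia and T cells lay nearest to the mean of 9 of the 10 genes were Sdcbp, Mpc1, Bsg, Sdf2l1 and Clta, at root mean square distances of 0.23 to 0.25 on the log2 scale, of 8579 genes compared. Of the 9 themselves Dusp1 was nearest to their mean, at 0.23, and Egr1 (1.12), Klf2 (0.94) and Fos (0.79) were farthest, so the mean pattern stands for few of the single genes.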

How the data were processed

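The authors deposited 8 matrices of raw UMI counts per gene and cell, made per the file headers with Cell Ranger 7.1.0 on mm10 (GRCm38), a later version than the published methods give. Whether intron reads were counted is not given in the sources used here. Cells with 200 to 7500 genes and at most 2% mitochondrial UMIs were kept, as in the study. No doublet caller was run. A cell was assigned to a class with 3 or more of its markers detected and at least 2 times as many as of any other class. Counts were summed per tagged set and class and tested in edgeR 4.0.16 (R 4.3.3; TMM, filterByExpr), with the tagged set as a block where the classes were compared. DESeq2 1.42.0, other factors, filters, gates, thinning and each set left out in turn were alternatives. The tests were checked on simulated data. The 10 genes, lists and tests were chosen with earlier results of these data known. The genes named from other lists are the called gene of largest change in each direction in each class, and the other called genes named were added after their values were seen. Sets come from mice pooled per region, so p-values measure the spread between sets. Of the preset lists, 1 gene is not reported here. Total UMIs per set ran from 9789875 to 26636526. Gene positions are from GENCODE M21. Set numbers were not taken to pair regions, since same-numbered sets deviated together with correlations of 0.07 to 0.50 in microglia and 0.02 to 0.20 in T cells, not all above 0.1.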

Additional observations from a re-analysis of the deposited data

Results flagged for a closer look

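The region effect differed between microglia and T cells, by the test of the difference itself, for Klf2 (2.09 on the log2 scale, larger in microglia) and for Junb (-0.66, larger in T cells). Klf2 was called in all 21 alternatives of this test and Junb in 12 of 21. A single set stood far from the other 3 of its region in 4 of the 40 groups of 4 sets examined by Dixon's criterion, where chance gives about 1 in 20. These were Klf2 in T cells of thalamus set 3, at 1.20 against 0.370 to 0.504 in the others, from 42 UMIs in 107 cells; Fosb in T cells of HPC set 1, at 0.388 against 0.123 to 0.167; Fosb in T cells of thalamus set 1, at 0.354 against 0.286 to 0.292; and Fosb in microglia of HPC set 4, at 0.166 against 0.249 to 0.253.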

How the results depend on the processing

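Leaving out each set in turn gave 659 to 3156 genes called in microglia with 7 of the 10 genes each time, 5 to 20 genes in T cells with 0 or 1 of the 10 (0 without HPC set 2), and 53 to 221 genes for the difference between classes with 1 or 2 of the 10. In microglia, genes called (and of the 10, where the count moved) were 531 (2 of the 10, Atf3 and Klf2) with a gate that allowed no marker of another class and kept 138 to 267 cells a set, 768 after thinning, 194 with as many microglia as T cells, 2717 with no mitochondrial filter, 34 in cells without DAM markers and 187 (4 of the 10) in marker-rich cells. In T cells they were 28 (2, Jun and Junb, the other 7 having no adjusted p) with DESeq2, 162 (3) with no filter on low counts, 7 after thinning, 8 (0) with a gate of 4 markers and 3 times any other class, and 0 of the 10 in Cd4 T cells. For the difference they were 410 with no filter on low counts, 175 at 5% mitochondrial UMIs, 181 with no such filter, 55 (1) after thinning, 8 (1) with microglia without DAM markers, and 1 of the 10 with the gate of 4 markers. With set number as a replicate block, 3894 genes and 8 of the 10 were called in microglia, Jun added at a log2 fold change of 0.26 (FDR 0.0034), and 119 genes and 3 of the 10 in T cells; in microglia every set correlated best with its own number, in T cells not. The difference without the block gave 88 genes and 2 of the 10. The causes of these shifts were not tested. Klf2 was called in all 23 alternatives in microglia and all 21 for the difference. The gate that allowed no other marker was not run for T cells or the difference, since a set had under 20 cells. The gates of 4 markers, the run with no mitochondrial filter, the marker-rich cells and the Cd4 T cells were chosen after seeing the data. HPC set 3 held 26 T cells. It was left out of the Cd4 run and, for T cells and the difference, of the gate of 4 markers, with 9 and 18 such cells.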
